A study of Oryza sativa Indica Group and Oryza sativa Japonica Group with 20 samples.

Results

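H3K27me3 regions that overlap an H3K4me3 region without coinciding with it were described in male meiocytes of 2 rice cultivars. They were chosen by the called positions and lengths of the peaks of both marks. The peaks of both replicates of a mark were merged on chromosomes 1 to 12, and a merged region was kept as reproducible where it held a peak of each replicate. A reproducible H3K27me3 region entered when at least 1 bp of it lay in a reproducible H3K4me3 region, and when with no such region the overlap reached 50% of the length of both. In IR64, 977 of 8219 reproducible H3K27me3 regions met this rule (11.9%, 95% Wilson interval 11.2 to 12.6), and in Azucena 1621 of 14872 (10.9%, 10.4 to 11.4), 2598 of 23091 in all. The numbers rest on both replicates: with replicate 2 or replicate 1 alone, 1784 and 2026 regions met the rule in IR64 and 2729 and 2679 in Azucena. The regions that reached 50% of both lengths are called coincident here, and numbered 2744 in IR64 and 3473 in Azucena. Because peak positions chose the regions, widths, folds and overlaps are given as descriptions without a test between the sets. Wilson intervals cover counting error only.

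H3K4me3, trimethylation of lysine 4 of histone H3, marks the start of transcribed genes, where the enzymes that place it travel with the transcription machinery. H3K27me3, trimethylation of lysine 27, is placed by Polycomb repressive complex 2 and in plants covers the bodies and promoters of developmental genes that are kept silent. In sequencing of pooled cells an overlap of called regions can come from 1 chromatin fragment with both marks, from different cells or alleles, or from neighbouring nucleosomes, and the lists do not tell these apart.

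The meiocytes were wild type, taken in prophase of the first meiotic division as callose-bound clusters pressed out of dissected anthers and collected by capillary, per the labels' protocols. IR64 is labelled as indica rice and Azucena as japonica rice. CUT&Tag, in which an antibody directs a transposase to chromatin, gave 2 libraries per mark and cultivar, and nothing in the labels says whether replicates came from separate plants. Genes were not analysed here, so regions are given by 1-based position as each list has it (build not given in the sources used here), the cultivars were not overlapped with each other, and the identity of the cells was not checked against marker genes.

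Uniquely aligned reads in the authors' table were, in M reads, 47.91 and 9.0 in the H3K27me3 libraries of IR64, 10.11 and 10.28 in those of Azucena, and between 9.22 and 13.71 in the H3K4me3 libraries. The read coverage at the summits of the described regions, recovered from each peak's fold and p, did not follow these totals. Median H3K27me3 summit coverage was 28 and 24 reads in the IR64 replicates and 59 and 60 in those of Azucena, over a median local background of 5.18 and 4.26 reads against 12.8 and 12.4. Median H3K4me3 summit coverage in the same regions was 41 and 34 reads in IR64 and 32 and 32 in Azucena. The H3K27me3 regions of IR64 were therefore called from lower coverage than those of Azucena, and every difference between the cultivars below goes with that difference in coverage, whose part was not tested.

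The overlap took 3 main forms: crossing 1 end of the H3K27me3 region, a whole H3K4me3 region held inside it, or the H3K27me3 region lying whole inside a longer H3K4me3 region. In IR64, 532 regions overlapped only at an edge (54.5%, 51.3 to 57.6), of which 521 did so at 1 end and 11 at both ends. A further 226 (23.1%, 20.6 to 25.9) held whole H3K4me3 regions, 14 did both, and 205 (21.0%, 18.5 to 23.6) lay inside 1 H3K4me3 region. In Azucena, 720 regions overlapped only at an edge (44.4%, 42.0 to 46.8), 710 of them at 1 end and 10 at both.

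Nested forms, the mixed one included, numbered 445 in IR64 and 901 in Azucena, and their order against edge overlaps depended on the settings. In IR64 edge overlaps were the minority at a limit of 70% (967 of 2030), with replicate 2 or replicate 1 alone (860 of 1784 and 932 of 2026), without peaks below a fold enrichment of 4 (57 of 116) and on bases called in both replicates (638 of 1502). In Azucena they were the majority at a limit of 30% (313 of 498), on peaks with a −log10 q of 5 or more (541 of 1017) and without peaks below a fold of 4 (78 of 121). Azucena had 653 regions that held whole H3K4me3 regions (40.3%, 37.9 to 42.7), 43 that held 1 and met another at an edge, and 205 inside an H3K4me3 region (12.6%, 11.1 to 14.4). With the mixed form counted as holding, 240 regions of IR64 held H3K4me3 and 205 lay inside it, and in Azucena 696 and 205. In IR64 that order turned with 1 replicate alone, to 365 holding and 559 inside with replicate 2 and 495 and 599 with replicate 1. It also turned without peaks below a fold of 4 (13 and 46) and on bases called in both replicates (337 and 527). The excess of edge overlap in IR64 over Azucena depended on the peaks used. When peaks below a fold of 4 were left out, it reversed, to 49.1% of 116 regions in IR64 and 64.5% of 121 in Azucena. At the other settings it kept its direction. The order of edge and holding regions in Azucena, 720 against 696, also depended on the settings. With replicate 2 alone 35.1% had edge overlap only and 44.7% held a whole H3K4me3 region. Holding regions were also the more frequent with replicate 1 alone (1223 against 992) and on bases called in both replicates (1080 against 726). The same held at a limit of 70% (1368 against 1210) and for an overlap of at least 100 bp (696 against 689).

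**Figure D1:**
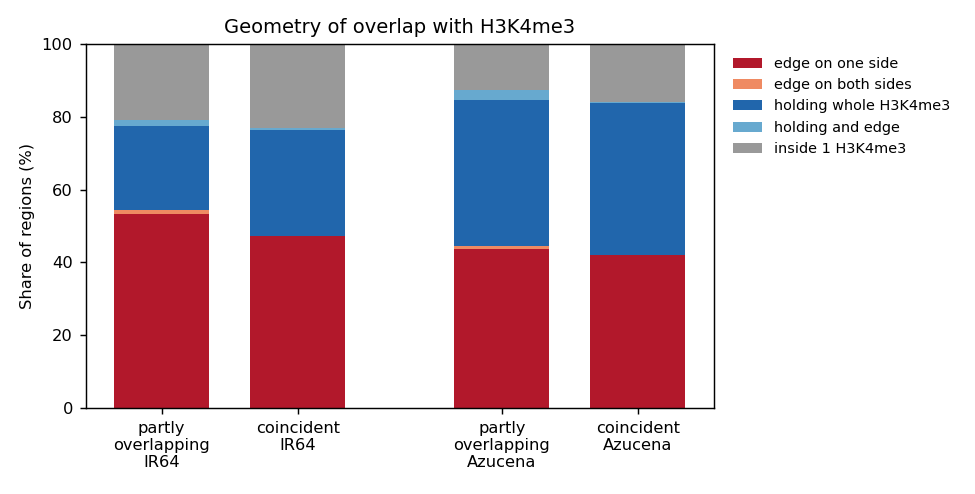
Stacked bars give the share of regions (%, y axis) in each geometry for partly overlapping and coincident H3K27me3 regions of IR64 and Azucena. Edge overlap on 1 side made up 53.3% of the partly overlapping regions in IR64 and 43.8% in Azucena, and 47.2% and 41.9% of the coincident ones.

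Few regions met more than 1 H3K4me3 region. A single H3K4me3 region was overlapped by 945 of 977 in IR64 and by 1561 of 1621 in Azucena, and 1 Azucena region overlapped 3. Seen from the other mark, 979 H3K4me3 regions of IR64 (3.31% of 29541) and 1647 of Azucena (6.05% of 27224) took part. Of these, 30 in IR64 and 35 in Azucena touched 2 or more of the partly overlapping H3K27me3 regions. At regions with edge overlap on 1 side, the H3K4me3 region lay at the lower coordinate in 275 and at the higher in 246 cases in IR64, and in 343 and 367 in Azucena, so neither chromosomal direction prevailed in both cultivars. A second H3K4me3 region within 1000 bp of the other end was rare, in 2.11% of these regions in IR64 and 2.68% in Azucena.

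The limit of 50% could be missed because of the length of either mark. In 393 of 977 regions of IR64 (40.2%, 37.2 to 43.3) the overlap reached 50% of the H3K4me3 length but not of the longer H3K27me3 region. In Azucena this was the most frequent case, at 933 of 1621 (57.6%, 55.1 to 59.9). The reverse, a short H3K27me3 region against a long H3K4me3 region, made up 440 (45%, 41.9 to 48.2) in IR64 and 433 (26.7%, 24.6 to 28.9) in Azucena. The overlap stayed under 50% of both lengths in only 144 regions of IR64 (14.7%, 12.7 to 17.1) and 255 of Azucena (15.7%, 14.04 to 17.6), all of them edge overlaps. These were the regions in which most of each mark lay outside the other, sharing a median of 253 bp (IR64) and 290 bp (Azucena).

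Widths spread more among the partly overlapping regions than in any other set, as a rule that uses the lengths makes likely. Their median in IR64 was 1031 bp (25th to 75th percentile 700 to 1532) and in Azucena 1418 bp (846 to 1986). With replicate 2 or replicate 1 alone the median was 646.5 and 685.5 bp in IR64 and 1077 and 1113 bp in Azucena. Coincident regions had medians of 1049 bp (IR64) and 1168 bp (Azucena). Regions with no overlap but H3K4me3 within 1000 bp had 831.5 and 865 bp, and those farther away 849 and 917 bp.

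Regions over 2000 bp made up 9.21% of the partly overlapping set in IR64 and 24.1% in Azucena, against 3.57% and 7.89% of the coincident set. A difference in this direction is likely from the rule, which uses the lengths. The widest partly overlapping region measured 3458 bp in IR64 and 5027 bp in Azucena. Coincident regions reached 3834 and 4350 bp. Regions without overlap reached 3579 and 3686 bp with H3K4me3 within 1000 bp, and 3815 and 4474 bp beyond it. These are widths of merged regions. The highest single peak in a region had a median of 842 and 767 bp in the IR64 replicates and 1235 and 1161 bp in the Azucena replicates, and with bases called in both replicates in place of the merged extent the median region measured 587 bp (IR64) and 1043 bp (Azucena).

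**Figure D2:**
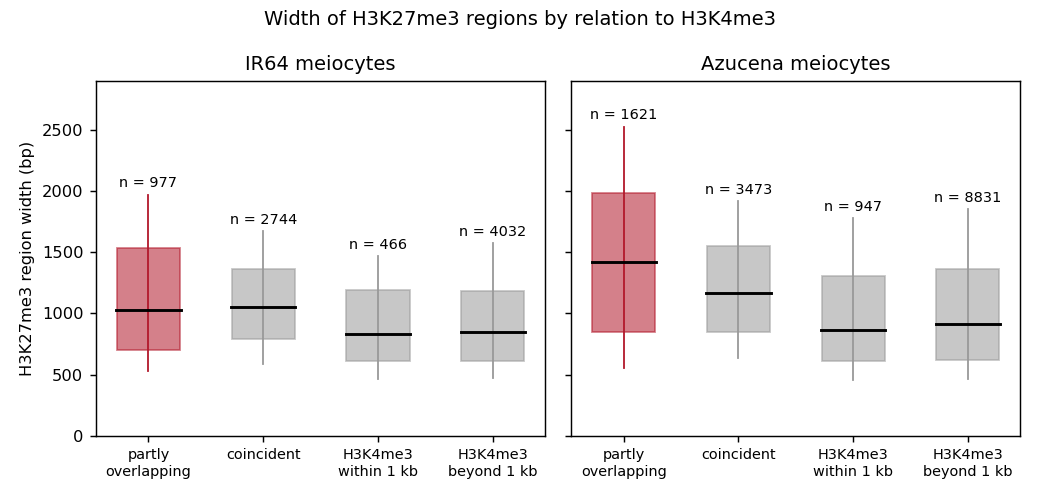
Boxes give the 25th to 75th percentile of H3K27me3 region width (bp, y axis), black lines the median and thin lines the 10th to 90th percentile, by relation to H3K4me3 in each cultivar. The partly overlapping regions (red) have medians of 1031 bp (IR64) and 1418 bp (Azucena) and the highest 90th percentile in both.

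The width separated the geometries, as the rule makes likely. Regions holding a whole H3K4me3 region had medians of 1596 bp (IR64) and 1782 bp (Azucena), with H3K4me3 regions of 561 and 634 bp inside them. Regions lying inside an H3K4me3 region had medians of 656 bp (IR64) and 574 bp (Azucena), within H3K4me3 regions of 1758 and 1776 bp. Regions with edge overlap on 1 side were intermediate, at 1002 and 1217 bp, next to H3K4me3 regions of 1244 and 1256.5 bp. All reproducible H3K4me3 regions had medians of 1043 bp (IR64) and 1024 bp (Azucena), above those of the held H3K4me3 regions and below those of the enclosing ones.

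The share of H3K27me3 regions that overlapped partly was highest among the widest, as the rule makes likely. The rule sets the overlap against the length of each region. A wide region that overlaps a much shorter H3K4me3 region therefore misses the limit by its own length and enters the set. How far the shares by width go beyond this was not tested. Of H3K27me3 regions of 2000 bp or more, 90 of 301 in IR64 (29.9%, 25.01 to 35.3) and 394 of 1363 in Azucena (28.9%, 26.6 to 31.4) were partly overlapping. Between 500 and 1000 bp the share was 10.5% in IR64 and 6.83% in Azucena. The geometry changed along the same axis. Below 500 bp, 59.0% of the partly overlapping regions of IR64 and 61.1% of those of Azucena lay inside an H3K4me3 region, while from 2000 bp on 56.7% and 65.7% held one.

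At edges, the shared stretch had about the same length in both cultivars. Among regions with edge overlap on 1 side the overlap had a median in IR64 of 498 bp (25th to 75th percentile 335 to 680) and in Azucena of 490 bp (330.5 to 694). The part of the region outside H3K4me3 had medians of 502 bp (IR64) and 720 bp (Azucena), and the part of the H3K4me3 region outside H3K27me3 medians of 779 and 774.5 bp. The longer H3K27me3 regions of Azucena extended farther from the H3K4me3 region and shared about the same length with it. Overlaps under 100 bp were 23 in IR64 and 31 in Azucena.

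Near the limits of the rule the regions on either side had similar values. In IR64 the 204 regions with a reciprocal overlap from 45% to under 50% had a median width of 1081 bp and median folds of 4.53 and 4.50 in replicates 1 and 2, and the 256 excluded ones from 50% to under 55% had 1059 bp and 4.41 and 4.54. In Azucena the 326 regions just inside had 1370 bp and 4.12 and 4.32, and the 336 just outside 1264 bp and 3.95 and 4.20. Overlaps of 1 to 50 bp numbered 9 in IR64 and 16 in Azucena, with median folds of 4.41 and 4.21 and of 3.87 and 3.64. Gaps of 0 to 49 bp, just outside, numbered 10 and 18, with folds of 4.18 and 3.70 and of 3.73 and 3.77.

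Most of the overlaps were present in each replicate by itself. The rule already required a peak of each replicate of both marks, so these counts are a description and no independent support. Replicate numbers pair no libraries of the 2 marks by the labels. Peaks of the 2 marks overlapped within replicate 1 in 922 of the 977 IR64 regions and within replicate 2 in 912, and in both in 867 (88.7%). In Azucena they did so in 1524, 1545 and 1459 (90.01%) of 1621 regions. A stretch called in all 4 libraries of the cultivar was present in 851 regions of IR64 (87.1%) and 1443 of Azucena (89.0%). Nested overlaps had such a stretch nearly always (99.1% of holding and 98.5% of inside regions in IR64, 99.5% and 99.5% in Azucena), as nesting makes likely. Edge overlaps had it less often (77.3% in IR64 and 75.8% in Azucena).

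The form of the overlap was less stable than its presence. Of the regions that overlapped in both replicates, 71.6% in IR64 and 82.7% in Azucena showed the same form (edge, holding or inside) in both. Within replicate 1, the overlap stayed under the 50% limit in 827 of the 922 overlapping regions in IR64 and in 1366 of 1524 in Azucena. Within replicate 2 it did so in 731 of 912 and 1324 of 1545.

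Fold enrichment, the authors' ratio of coverage at the summit to the local background, was taken as the highest H3K27me3 peak in a region. The median was 4.18 and 4.25 in replicates 1 and 2 of IR64 and 3.85 and 4.00 in Azucena. Coincident regions had 4.70 and 4.78 in IR64 and 4.12 and 4.37 in Azucena. Regions without overlap whose nearest H3K4me3 lay beyond 1000 bp had 4.07 and 4.17 in IR64 and 3.41 and 3.53 in Azucena, and those with H3K4me3 within 1000 bp 3.82 and 3.88, and 3.31 and 3.37. In each of the 4 H3K27me3 libraries the partly overlapping regions thus lay between the coincident ones and those without overlap.

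The H3K4me3 partners carried less H3K4me3 than those of coincident regions in each of the 4 H3K4me3 libraries. Their median H3K4me3 fold, taking the highest peak per region, was 3.77 and 3.5 in IR64 and 3.57 and 3.56 in Azucena, against 4.14 and 3.87 and 3.87 and 3.83 at coincident regions. All reproducible H3K4me3 regions had 3.73 and 3.53 in IR64 and 3.84 and 3.8 in Azucena. The partners of partly overlapping regions therefore stood near the median of all H3K4me3 regions in IR64 and below it in Azucena.

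The marks took opposite orders in the nested forms. Among edge overlaps, regions holding whole H3K4me3 regions and regions inside one, the median H3K27me3 fold was highest for holding, at 4.64 and 4.61 in the IR64 replicates and 4.41 and 4.6 in Azucena. It was 4.12 and 4.21 at edge overlaps in IR64 and 3.62 and 3.72 in Azucena. The 14 and 43 regions that held H3K4me3 and met another at an edge had 3.68 and 4.10 in IR64 and 5.14 and 5.09 in Azucena, and the 11 and 10 with edges on both sides had 5 and 5.52 in IR64 and 4.47 and 4.46 in Azucena. Inside an H3K4me3 region it was 4.07 and 4.21 in IR64, about the same as at edges, and 3.03 and 3.29 in Azucena, below them.

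Of the same 3 forms, H3K4me3 fold was lowest for holding and highest for inside in every library. It was 3.22 and 3.12 in IR64 and 3.30 and 3.23 in Azucena where the H3K4me3 region was held inside, 3.79 and 3.5 and 3.68 and 3.65 at edges, and 4.42 and 4.00 and 4.10 and 4.12 where the H3K4me3 region enclosed the H3K27me3 region. Among these 3 forms each mark thus had its highest median where its region was the enclosing one, and fold and width come from the same peaks. Across regions, which share their libraries, Spearman's rho between the folds of the 2 marks (means of the replicates) was 0.036 over the 977 regions of IR64 and -0.016 over the 1621 of Azucena. Within the 3 main forms it was 0.05, 0.13 and 0.20 (edge on 1 side, holding, inside) in IR64 and 0.08, 0.13 and 0.26 in Azucena. Between the replicates of 1 mark it was 0.72 and 0.75 in IR64 and 0.89 and 0.70 in Azucena for H3K27me3 and H3K4me3.

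**Figure D3:**
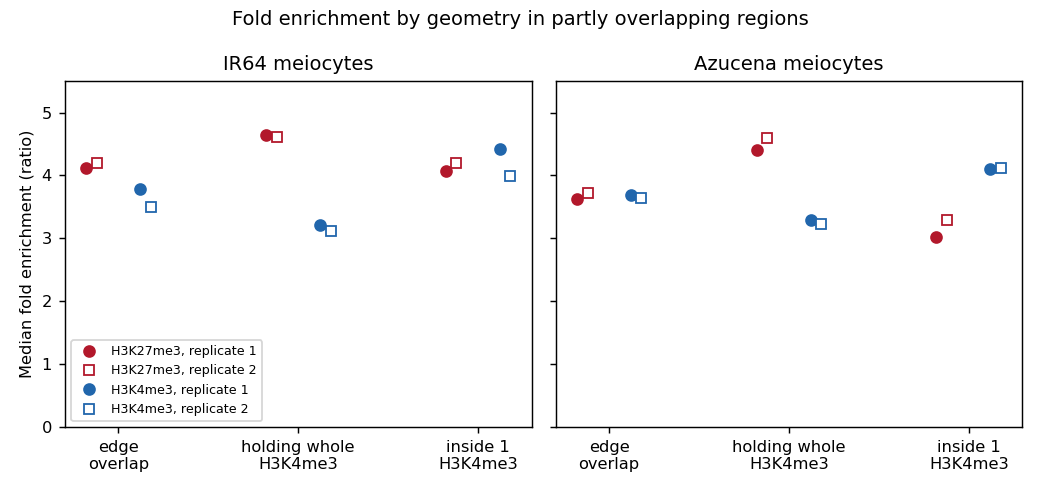
Points give the median fold enrichment (ratio, y axis) of the highest H3K27me3 peak (red) and H3K4me3 peak (blue) per region in each replicate (filled, replicate 1; open, replicate 2), by geometry. Of the 3 forms plotted, regions holding a whole H3K4me3 region have the highest H3K27me3 and the lowest H3K4me3 medians in both cultivars; the less frequent forms are not plotted.

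Between the cultivars, 3 values per library were compared over 2 against 2 libraries by exact permutation (two-sided), which cannot give a p below 0.333. The median H3K27me3 fold of IR64 was 4.21 ± 0.0480 and that of Azucena 3.92 ± 0.108 (SD, n = 2 each), a ratio of 1.07. Both IR64 libraries lay above both Azucena libraries, and the exact permutation p was 0.333 (1 after Benjamini-Hochberg adjustment over the 3). Without peaks below a fold of 4 the ratio was 1.00 and the exact permutation p 1. That filter cuts both cultivars at the same fold, near their medians, which draws the ratio toward 1 by construction. Over all reproducible H3K27me3 regions the median folds were 4.27 and 4.33 in the IR64 replicates and 3.63 and 3.77 in those of Azucena. A higher median in IR64 was thus not particular to the partly overlapping regions. Their medians lay below those of all regions in IR64 and above them in Azucena. The median H3K4me3 fold in the regions of IR64 was 3.63 ± 0.192 and in those of Azucena 3.57 ± 0.00800 (SD, n = 2 each). Its ratio of 1.02 was smaller than the spread between the IR64 replicates (exact permutation p 1, adjusted 1) and was 0.981 without replicate 1 of IR64.

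The summit, the base of highest coverage in a peak, was not used to choose the regions. The highest H3K27me3 summit lay inside an H3K4me3 region in 73.7% and 72.2% of the regions in the IR64 replicates and in 69.8% and 72.7% in Azucena. H3K4me3 covered 51.3% of the summed length of these regions in IR64 and 42.2% in Azucena. The IR64 mean was 72.9% ± 1.09 and the Azucena mean 71.2% ± 2.05 (SD, n = 2 each), a difference of 1.71 percentage points with overlapping libraries (exact permutation p 0.667, adjusted 1). When peaks below a fold of 4 were left out, the difference was 22.1 points (exact permutation p 0.333).

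Where a whole H3K4me3 region was held inside, the share of H3K27me3 summits on it exceeded its share of the length. The summit lay on it in 75.2% and 69.9% of the IR64 regions and in 79.2% and 83.8% of those of Azucena, while the held H3K4me3 regions covered 38.2% and 37.3% of the length. The central 40% of these regions contained 58.4% and 56.6% of their H3K27me3 summits in IR64 and 58.8% and 55% in Azucena. In H3K27me3 regions beyond 1000 bp of H3K4me3, the same central part held 60.8% and 59.2% of the summits in IR64 and 62.3% and 62.3% in Azucena, so summits lay centrally there too.

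A held H3K4me3 region was often off the centre. Where exactly 1 was held (219 regions in IR64 and 646 in Azucena), its centre was offset from that of the H3K27me3 region by a median of 18.7% of the width in IR64 and 16.6% in Azucena. The shorter side left a median of 191 and 223 bp and the longer side 743 and 835.5 bp. The median distance between the summits of the 2 marks was 165.5 and 177.5 bp in the IR64 replicates and 160 and 141 bp in Azucena. The summits of the 2 H3K27me3 replicates were 169.5 bp apart in IR64 and 111 bp in Azucena in the same regions. In IR64 the summits of different marks were about as close as those of H3K27me3 replicates, and in Azucena they were farther apart.

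At edges the summits of the 2 marks were apart. Their median distance at regions with edge overlap on 1 side was 567 and 537 bp in the IR64 replicates and 747.5 and 751.5 bp in Azucena, against 154 and 114.5 bp between the H3K27me3 replicates of IR64 and of Azucena. The H3K27me3 summit lay inside H3K4me3 in 62.0% and 61.4% of these regions in IR64 and 50.7% and 53.4% in Azucena, where H3K4me3 covered 46.6% and 38.7% of the length. Along the region it showed little displacement. With the far end set at 0% and the H3K4me3 side at 100%, the median summit stood at 53.6% and 53.7% in IR64 and 49.8% and 51.7% in Azucena.

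The regions with the overlap under 50% of both lengths had the most separate summits, as choosing them by a short overlap makes likely. There the H3K27me3 summit lay outside H3K4me3 in most cases, with 27.8% and 29.2% inside in IR64 and 25.9% and 28.6% in Azucena. The shared stretch had medians of 253 bp (IR64) and 290 bp (Azucena), while the H3K27me3 regions themselves measured 1106.5 and 1206 bp at the median. Whether summits lay inside H3K4me3 more or less often than this short stretch would give was not tested. The summits of the 2 marks were 802 and 838.5 bp apart in IR64 and 954 and 971 bp in Azucena. These 144 and 255 regions are the side-by-side arrangements of the set.

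**Figure D4:**
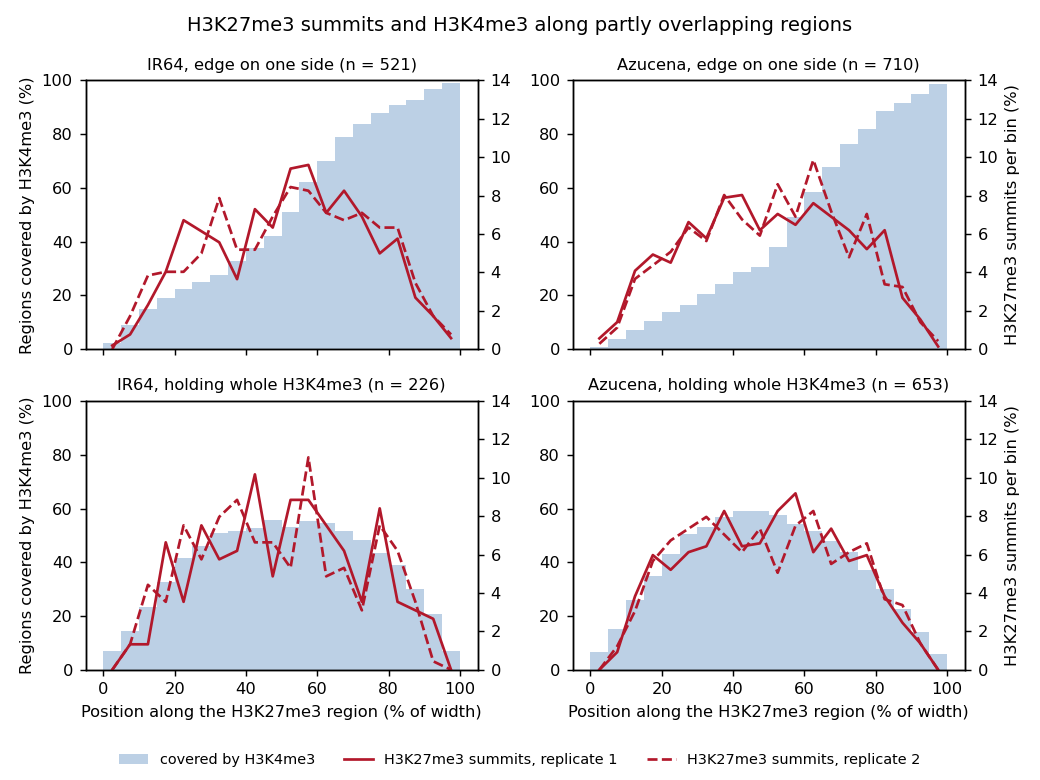
Blue bars give the share of regions covered by H3K4me3 (%, left axis) and red lines the share of H3K27me3 summits (%, right axis) in 20 bins along the H3K27me3 region (x axis, % of width). Regions with edge overlap are turned so that H3K4me3 lies on the right. Summits of these stay near the middle, at a median of 49.8% to 53.7% of the width, while H3K4me3 covers the right-hand side.

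Single regions of highest fold show the forms. Among edge overlaps of IR64 the highest was chromosome 9, 24040883 to 24041286, with H3K27me3 folds of 16.7 and 14.1 in the replicates and H3K4me3 folds of 3.52 and 2.27. It is only 404 bp wide and 91.6% of it lies in an H3K4me3 region of 1876 bp. The next, chromosome 3, 34425911 to 34426371, had H3K27me3 folds of 10.6 and 8.84 and lies to 96.5% in an H3K4me3 region of 2699 bp. Both are narrow peaks at the border of a long H3K4me3 region. The third, chromosome 3, 36136785 to 36137993 (folds 7.51 and 8.73), is instead 1209 bp wide and meets an H3K4me3 region of 522 bp that ends 3 bp beyond it.

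In Azucena the 2 highest edge overlaps were also narrow peaks at a long H3K4me3 region. Chromosome 1, 42228009 to 42228466, had H3K27me3 folds of 11.0 and 10.5 and lies to 75.5% in an H3K4me3 region of 1815 bp. Chromosome 9, 22883383 to 22883787, had folds of 11.4 and 9.42 and lies to 95.8% in one of 1967 bp. Chromosome 9, 15617255 to 15618705, with folds of 8.79 and 9.34, was the only one of the 6 whose H3K27me3 summit lay outside H3K4me3 in both replicates, 2400 and 2147 bp from the H3K4me3 summit.

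The strongest regions holding H3K4me3 were wider, at 798 to 1477 bp. In IR64 the first was chromosome 2, 9054709 to 9056185 (H3K27me3 folds 10.1 and 10.7), around an H3K4me3 region of 727 bp with folds of 5.28 and 5.80. Chromosome 3, 32557851 to 32558873 (10.6 and 9.81), held one of 420 bp, and chromosome 6, 4946428 to 4947225 (7.96 and 8.10), one of 278 bp. The H3K27me3 summit lay within the H3K4me3 region in both replicates at all 3.

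Azucena showed the same arrangement. Chromosome 7, 16014635 to 16015898 (H3K27me3 folds 10.6 and 10.2), held an H3K4me3 region of 623 bp with folds of 3.85 and 3.96, and its summits stood 50 and 16 bp from those of H3K4me3. Chromosome 4, 9637759 to 9638697 (9.03 and 11.3), held one of 446 bp. Chromosome 1, 12201747 to 12202950 (10.4 and 9.77), held one of 535 bp. In all 3 the H3K27me3 summit again lay within H3K4me3 in both replicates.

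Among regions inside an H3K4me3 region, the 3 of highest H3K27me3 fold had higher folds in IR64 than in Azucena. In IR64 chromosome 3, 28060955 to 28061285, had the highest mean H3K27me3 fold of all 977 regions, at 20.0 and 16.4, in 331 bp within an H3K4me3 region of 1609 bp (folds 6.84 and 5.92). Chromosome 11, 6033970 to 6034412, had 13.4 and 13.5, and chromosome 6, 20204737 to 20205071, had 7.35 and 7.16. All 3 are 331 to 443 bp wide. Of the 20 highest regions, 3 lay inside an H3K4me3 region in IR64 and 0 in Azucena. Over all partly overlapping regions the inside share was 21.0% in IR64 and 12.6% in Azucena. The counts among the 20 highest are small, and a difference between the cultivars in them was not tested.

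The highest such regions of Azucena were lower and wider. Chromosome 6, 23163605 to 23164398, had H3K27me3 folds of 5.03 and 6.52. Chromosome 7, 22060780 to 22061839, had 5.07 and 5.95, and chromosome 10, 24401828 to 24402700, had 4.52 and 6.38. Their mean folds all lie below 8.30, the lowest mean among the 20 highest Azucena regions.

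**Figure D5:**
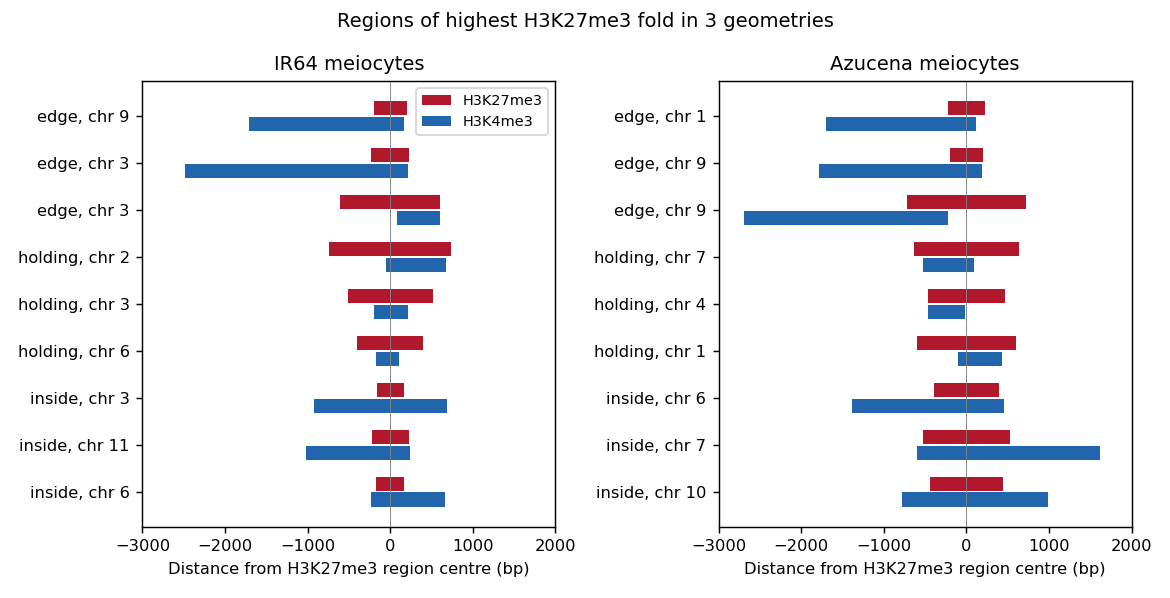
Bars show the extent of the H3K27me3 region (red) and its H3K4me3 region (blue) for the 3 regions of highest H3K27me3 fold in each of 3 geometries, as distance from the H3K27me3 centre (bp, x axis). The inside regions of IR64 are 331 to 443 bp wide, and holding regions extend on both sides of their H3K4me3 bar.

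Edges on both sides place an H3K27me3 region between 2 H3K4me3 regions. In IR64 the highest were chromosome 11, 31640042 to 31641745 (H3K27me3 folds 7.38 and 6.07), chromosome 6, 311297 to 313349 (6.40 and 6.68), and chromosome 1, 2697114 to 2698492 (6.14 and 5.66). In Azucena they were chromosome 5, 21737652 to 21739593 (6.77 and 5.67), chromosome 11, 2119507 to 2121082 (5.39 and 5.34), and chromosome 10, 22667482 to 22669485 (5.45 and 5.16). The last had the smallest shared part of the 6, 18.4% of its width, and was the only one whose H3K27me3 summit lay between the H3K4me3 regions in both replicates.

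Regions that held 1 H3K4me3 region and met another at an edge were led in IR64 by chromosome 11, 11215872 to 11217211 (folds 8.17 and 6.83), chromosome 2, 2487646 to 2489130 (4.44 and 6.14), and chromosome 11, 6286347 to 6288057 (3.67 and 6.18). In Azucena they were led by chromosome 3, 21195376 to 21196994 (9.47 and 9.54), chromosome 10, 22428271 to 22429664 (7.84 and 8.09), and chromosome 8, 10231490 to 10233806 (7.51 and 6.71). The last IR64 region differed most between its replicates, with a mean of 4.92 ± 1.77 (SD, n = 2). In all 6 the H3K27me3 summit lay inside an H3K4me3 region in both replicates.

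The widest regions were of moderate fold. In IR64 these were chromosome 2, 28515208 to 28518665 (3458 bp, H3K27me3 folds 3.66 and 3.64), which holds an H3K4me3 region of 1258 bp, and chromosome 3, 5248953 to 5252221 (3269 bp, 4.09 and 4.16), with an edge overlap of 1120 bp. In Azucena they were chromosome 5, 24187249 to 24192275 (5027 bp, 2.73 and 3.09), which overlaps 2 H3K4me3 regions over 2696 bp, and chromosome 2, 14681758 to 14685890 (4133 bp, 2.92 and 3.00), around an H3K4me3 region of 1728 bp. In both cultivars they lay below the median fold of the partly overlapping regions in each replicate.

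The share of H3K27me3 regions that overlapped partly followed H3K27me3 fold in Azucena and not in IR64. From the lowest to the highest quintile of mean fold it was 11.4, 13, 14.96, 10.3 and 9.74% in IR64, with the peak in the middle. In Azucena it was 8, 9.55, 11.5, 12.6 and 12.9%. The coincident share rose with fold in both cultivars, from 21.5% in the lowest quintile to 49.2% in the highest in IR64, and from 10.6% to 36.8% in Azucena. The form of overlap shifted in the same direction in both. Edge overlaps made up 65.8% of the partly overlapping regions in the lowest quintile and 48.1% in the highest in IR64, and 63.9% and 30.7% in Azucena. Holding regions, with or without an edge, made up 14.4% in the lowest quintile and 40% in the highest in IR64, and 15.5% and 66.9% in Azucena.

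Partly overlapping regions were spread over all 12 chromosomes, at 2.52 per Mb in IR64 and 4.27 per Mb in Azucena. The chromosome lengths behind these densities end at the last called base and are lower bounds. In IR64 chromosomes 2 and 6 were densest, at 3.26 and 3.24 per Mb, and chromosome 9 sparsest at 1.94. In Azucena chromosome 1 was densest at 5.12 per Mb and chromosome 10 sparsest at 3.51. As a share of H3K27me3 regions the range was 9.42% (7.16 to 12.3) on chromosome 9 to 15.6% (13.2 to 18.3) on chromosome 2 in IR64. In Azucena it was narrower, 9.44% (7.73 to 11.5) on chromosome 10 to 12.6% (10.7 to 14.7) on chromosome 7.

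The form of overlap also varied by chromosome. Edge overlaps were 66.7% of the partly overlapping regions on chromosome 4 and 40.7% on chromosome 11 in IR64, from 84 and 81 regions. In Azucena they ranged between 31.2% on chromosome 8 and 53.5% on chromosome 9, from 109 and 86 regions. Chromosomes are not replicates, and these ranges are descriptions.

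Within chromosomes the regions were spread unevenly. Their counts per bin of 1 Mb had a mean of 2.47 and a variance of 3.52 in IR64, and 4.26 and 6.85 in Azucena. In bins of 1 Mb the median count was 2 in IR64 and 4 in Azucena, the highest 10 and 13, and 51 of 383 bins in IR64 and 20 of 375 in Azucena had none. The fullest IR64 bins, with 10 regions each, lay at 42 to 43 Mb of chromosome 1, 28 to 29 Mb of chromosome 2 and 6 to 7 and 31 to 32 Mb of chromosome 6. In that order these bins had 40, 47, 32 and 36 H3K27me3 regions in all. In Azucena 24 to 25 Mb of chromosome 5 held 13 of 63 H3K27me3 regions. The bins at 23 to 24 Mb of chromosome 4 and 2 to 3 Mb of chromosome 7 held 12 of 52 and 12 of 89. Over all chromosomes the share was 11.9% in IR64 and 10.9% in Azucena. Neighbouring regions lay a median of 239 kb apart in IR64 and 139 kb in Azucena, and 38 (3.94%) and 66 (4.10%) neighbouring pairs were under 5000 bp apart.

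They were fewer where H3K4me3 is sparse, and an overlap needs an H3K4me3 region. In the quintile of bins with the fewest H3K4me3 regions (9 to 46 per bin in IR64 and 8 to 44 in Azucena) a bin held a mean of 1.08 and 1.71 partly overlapping regions. In the quintile with the most (105 to 137 and 100 to 138) it held 3.13 and 5.88. Per 100 H3K4me3 regions the numbers were 3.43 and 5.42 in the sparsest quintile and 2.69 and 5.41 in the densest. As a share of H3K27me3 regions they were 8.97, 11.7, 11.4, 12.2 and 13.5% over the quintiles in IR64, and 8.43, 10.3, 11.1, 10.7 and 12.3% in Azucena.

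The outermost 1000 bp of chromosomes, up to the last called base, held 1 region of IR64 (0.102%) and 0 of Azucena. Coincident regions there numbered 5 (0.182%) and 8 (0.230%). The last called base comes from these same lists, so a peak lies there by definition, and depletion at chromosome ends was not tested. A count of 0 of 1621 regions allows a share of up to 0.185%. Within 1 Mb of an end lay 104 regions in IR64 (10.6%) and 132 in Azucena (8.14%), against 11.5% and 8.78% of coincident regions and 6.87% and 7.04% of H3K27me3 regions beyond 1000 bp of H3K4me3. Of H3K27me3 regions with H3K4me3 within 1000 bp, 9.87% in IR64 and 11.6% in Azucena lay within 1 Mb of an end. The median distance of the partly overlapping regions to an end was 6.82 Mb in IR64 and 7.15 Mb in Azucena.

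Within 50000 bp of a region's centre lay a median of 8 further H3K4me3 regions in both cultivars. Coincident regions had 8 in both, H3K27me3 regions with H3K4me3 within 1000 bp had 10 in IR64 and 9 in Azucena, and those beyond 1000 bp had 8 and 7. Measured between centres, the next H3K27me3 region was a median of 11.99 kb away in IR64 and 7.55 kb in Azucena, against 11.4 and 7.17 kb for coincident regions and 8.85 and 3.8 kb for H3K27me3 regions beyond 1000 bp of H3K4me3. A second H3K27me3 region within 5000 bp was found for 23.1% of the partly overlapping regions in IR64 and 36.0% in Azucena. For coincident regions the shares were about the same, 22.6% and 36.9%. They were 45.1% and 64.1% for H3K27me3 regions with H3K4me3 within 1000 bp, and 29.7% and 56.5% for those far from H3K4me3.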

How the data were processed

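The analysis used 8 CUT&Tag peak lists of meiocytes out of 20 samples, grouped and numbered by their titles. The other samples were not analysed here. Each deposited list belongs to 1 library and gives, per peak, start, end, summit, a fold ratio over the local background, and −log10 p and −log10 q values; the lowest deposited −log10 q was 2.01. The submitters' processing notes name MACS2 2.1.0, fastp 0.20.1, Bismark 0.22.3 and Bowtie2 without their roles. Builds, a control library and a duplicate filter are not given in the sources used here. Peaks on unplaced contigs of Azucena were left out.

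Overlapping or touching peaks were merged with Python 3.11.15 and numpy 2.4.6. Summit coverage was recovered from fold and p for a Poisson tail with 1 added to both terms of the fold, within 0.02 of the deposited −log10 p, in 99.9% to 100% of the regions per library. The geometry functions recovered 4500 of 4500 planted regions in a test on simulated data. Tests were two-sided exact permutations over libraries. Their p-values reflect library-to-library spread alone, possibly technical. Per cultivar, the 3 regions of highest mean H3K27me3 fold in each of 5 geometries and the 2 widest are named. The regions and rules were chosen with earlier results of these data known. The alternatives were limits of 30% and 70%, an overlap of 100 bp, a −log10 q of at least 5, a fold of at least 4, merging within 500 bp, 1 replicate alone, a replicate block and, added after seeing the data, bases called in both replicates.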

Additional observations from a re-analysis of the deposited data

Results flagged for a closer look

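The median width of the highest H3K27me3 peak per region, set over that of coincident regions, lay on opposite sides of 1 in the cultivars. In IR64 the partly overlapping regions had 842 and 767 bp in replicates 1 and 2 and the coincident ones 939.5 and 833.5 bp, a mean ratio of 0.908. In Azucena they had 1235 and 1161 bp against 1046 and 1066 bp, a mean ratio of 1.13. Both libraries of a cultivar showed its direction, and the difference between the cultivars was not tested. Median H3K27me3 summit coverage in these regions was 28 and 24 reads in IR64 and 59 and 60 in Azucena, and its part in the difference was not tested.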

How the results depend on the processing

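Of 72 recomputed counts, shares and widths within 1 cultivar, which have no direction, 56 moved by more than the replicate spread, the counting interval or 1.5 times. Of 36 recomputed contrasts between the cultivars, 3 reversed. The number of regions, 977 in IR64 and 1621 in Azucena, was 253 and 498 with a limit of 30%, 2030 and 2979 with 70%, 490 and 1017 on peaks with −log10 q at or above 5, and 116 and 121 with a fold of at least 4. With 1 replicate alone it was 1784 to 2026 and 2679 to 2729, and with bases called in both replicates 1502 in IR64. In the same order of settings the edge share was 70.4, 47.6, 60.6 and 49.1% in IR64, 46.0 to 48.2% with 1 replicate and 42.5% with shared bases, and in Azucena 62.9, 40.6, 53.2 and 64.5%, 35.1 to 37.0% and 33.6%. The median width in IR64 was 949 bp (30%), 1199.5 (−log10 q), 841.5 (fold), 1134.5 (merged within 500 bp), 646.5 to 685.5 (1 replicate) and 587 (shared bases), and in Azucena 1451.5, 1572, 1798, 1590, 1077 to 1113 and 1043, with 1293 at a limit of 70%. The share of summits inside H3K4me3 in IR64 was 51.4% (30%), 82.2% (70%), 74.7% (overlap of 100 bp), 84.9% (fold), 71.4% (merged), 70.7 to 71.7% (1 replicate) and 70.5% (shared bases), and in Azucena 50.8% (30%), 80.7% (70%), 69.0% (−log10 q), 62.8% (fold), 68.6 to 69.6% (1 replicate) and 65.7% (shared bases). The IR64 to Azucena ratio of the H3K4me3 fold crossed 1 at a limit of 30% (0.981), on peaks with −log10 q at or above 5 (0.997), and without replicate 1 of IR64 (0.981). Without peaks below a fold of 4, a filter on the fold itself, the H3K27me3 fold ratio was 1.00. Leaving out 1 library gave 0.981 to 1.06 for the H3K4me3 fold ratio, 1.05 to 1.10 for the H3K27me3 fold ratio and 0.256 to 3.16 points for summits. Fewer regions follow from a stricter limit or filter by construction, and the cause of the other changes was not tested. With the cultivars exchanged only within a replicate number (replicate block), the H3K27me3 fold ratio of 1.07 had an exact permutation p of 0.5, the smallest possible, the H3K4me3 fold ratio of 1.02 and the summit difference of 1.71 points had p 1, and the numbers pair no libraries by the labels.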

Other observations

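On the unplaced contigs of Azucena, 18 of which held peaks, there were 34 reproducible H3K27me3 and 22 reproducible H3K4me3 regions. Of the 34, 0 overlapped H3K4me3 partly.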
